A study of Homo sapiens with 4 samples.

Results

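Proteoglycan genes were compared between MDA-MB-231, an established line from a triple-negative breast cancer, and the line named LM2 in the deposited table, which was isolated from it and metastasizes to lung. Neither line was treated, both grew in DMEM with serum, and 2 libraries prepared from total RNA were sequenced for each, 4 in all. The deposited table holds 1 FPKM (fragments counted on a gene, scaled by its length and by library size) for a gene in each line, which combines its libraries, with a lower and an upper bound. There is therefore no SD between replicates, no p-value, and no replicate check behind any difference given here. The comparison is of 1 parental line with 1 line derived from it, and in such bulk RNA a higher level in every cell cannot be told apart from a larger share of cells with the gene on. The 53 genes described here encode proteoglycan core proteins and the enzymes that make, modify or cut their glycosaminoglycan chains. They were chosen by name from the 57815 genes of the table, and each of the 53 names matched exactly 1 entry.

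Proteoglycans are proteins that carry long sulfated sugar chains. Synthesis of chondroitin and heparan chains starts on a serine of the core protein, where a short linker that begins with xylose is built. One set of enzymes then extends the linker to chondroitin sulfate (or, after epimerization, dermatan sulfate), and another extends it to heparan sulfate. Sulfotransferases decorate both kinds of chain, and the pattern of sulfate groups determines which growth factors, chemokines and matrix proteins are bound. Hyaluronan is made in another way, since it is spun out at the plasma membrane without a core protein or sulfate, and CD44 is its main receptor. In breast tumours these molecules take part in cell adhesion, in growth factor signalling and in the make-up of the pericellular matrix.

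CHSY1, a chondroitin synthase that was higher in LM2, was among the genes for which the study lists quantitative PCR primers, and these are shown because they fix which part of the transcript that assay reads. Both primers matched CHSY1 and no other gene among the GENCODE 44 transcripts, without mismatches. They lie on chromosome 15 of GRCh37, the forward primer at chr15:101775483-101775502 on the minus strand and the reverse primer at chr15:101775393-101775411 on the plus strand. Both fall in the coding part of exon 2 of 3 and frame a product of 110 bases. The sequences are in capitals because every base pairs with the transcript or its complement.
CHSY1 forward: CTGGGCACCACGGAAGAAAT
CHSY1 reverse: GGCACCATTCTCCGAAGCA

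The 250 bases before the RefSeq transcription start (GRCh38.p14) are printed next for 5 of the 7 called genes in the promoter table, 5′ to 3′ on the strand of the gene, to set chondroitin chain enzymes beside genes of the opposite direction. The first 3 are chondroitin chain enzymes with higher levels in LM2, and the other two, GPC1 and HS6ST1, were lower. Capitals mark the GC box (GGGCGG, or CCGCCC on the other strand), counted with overlaps. CHSY1 lies at chr15:101252049-101252298 (minus strand), CHSY3 at chr5:129904215-129904464 (plus strand), CSGALNACT2 at chr10:43138195-43138444 (plus strand), GPC1 at chr2:240435413-240435662 (plus strand) and HS6ST1 at chr2:128318869-128319118 (minus strand).
CHSY1: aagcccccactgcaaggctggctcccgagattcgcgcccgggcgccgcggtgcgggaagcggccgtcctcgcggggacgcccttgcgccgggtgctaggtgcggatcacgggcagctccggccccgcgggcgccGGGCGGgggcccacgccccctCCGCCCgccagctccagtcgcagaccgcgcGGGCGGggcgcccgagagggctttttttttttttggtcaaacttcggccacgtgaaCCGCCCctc
CHSY3: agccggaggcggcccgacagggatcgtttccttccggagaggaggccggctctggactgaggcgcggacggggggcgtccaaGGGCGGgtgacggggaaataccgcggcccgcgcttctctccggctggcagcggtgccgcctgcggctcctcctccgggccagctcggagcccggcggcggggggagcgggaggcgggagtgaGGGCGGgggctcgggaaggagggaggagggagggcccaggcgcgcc
CSGALNACT2: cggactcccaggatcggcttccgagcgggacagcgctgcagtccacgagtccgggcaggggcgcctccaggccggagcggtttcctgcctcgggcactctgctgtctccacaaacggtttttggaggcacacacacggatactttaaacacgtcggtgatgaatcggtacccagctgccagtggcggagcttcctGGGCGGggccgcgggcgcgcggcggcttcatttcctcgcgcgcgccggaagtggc
GPC1: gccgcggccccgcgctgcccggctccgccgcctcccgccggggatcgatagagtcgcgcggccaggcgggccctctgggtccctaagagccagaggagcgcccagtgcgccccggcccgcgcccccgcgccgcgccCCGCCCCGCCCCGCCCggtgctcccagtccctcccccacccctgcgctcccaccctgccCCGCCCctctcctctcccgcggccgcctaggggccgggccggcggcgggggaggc
HS6ST1: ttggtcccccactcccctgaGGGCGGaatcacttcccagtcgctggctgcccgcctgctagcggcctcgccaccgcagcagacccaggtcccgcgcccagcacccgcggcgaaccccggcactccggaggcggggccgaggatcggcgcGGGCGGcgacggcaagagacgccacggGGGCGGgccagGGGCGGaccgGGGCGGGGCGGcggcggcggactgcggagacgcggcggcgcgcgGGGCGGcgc

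All 5 stretches were rich in G and C (67.2% to 84.0%) and held 29 to 40 CpG pairs, against a median of 11 over 35116 RefSeq windows. Windows on chromosome 8, where HAS2 lies, were left out of this median and of the shares below. The GC box occurred 4 times before CHSY1, 2 times before CHSY3, once before CSGALNACT2, 4 times before GPC1 and 7 times before HS6ST1, and 42.6% of the 35116 windows held it at least once. None of the 5 held a CCAAT box (CCAAT, 32.0% of windows), a TATA box (TATAAA, 10.7%) or an AP-1 site (TGANTCA, 6.57%), and the E-box (CACGTG, 6.34%) was found before CHSY1 only, all searched on both strands. Of the called genes whose stretches are not printed, CSPG4 had 14 CpG pairs and 1 GC box, and CHST3 had 3 windows with 13 to 39 CpG pairs, of which the one with 13 held an AP-1 site and no GC box. Whether higher and lower genes differ in these letters was not tested. Of the 53 genes, 41 were in the promoter table, and SRGN, SPOCK1, LUM and HAS2 were not.

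The measure of change was log2 of (FPKM + 1) in LM2 over (FPKM + 1) in MDA-MB-231, on which changes of low genes come out too small. Higher or lower was called where this ratio reached 1.5-fold, the bounds of the cell lines did not overlap and the mean FPKM was at least 0.5. Of the 53 genes, 45 passed the filter on low values. Among these 45, 7 were called higher in LM2 (15.6%, where the same rule called 4.67% of all 13911 genes tested) and 4 were called lower (8.89%, against 4.61%). The genes were chosen with earlier results of these data known, so these shares are a description and no test. Those higher were SRGN, SPOCK1, CSPG4, HAS2, CHSY1, CHSY3 and CSGALNACT2, and those lower were LUM, GPC1, CHST3 and HS6ST1. By the fold alone, 10 of the 45 were higher and 7 of the 45 lower. Over all genes tested, the fold alone called 10.3% higher and 11.8% lower. The median log2 ratio of the 45 was -0.07, beside -0.04 over all genes tested, and the median size of the ratio was 0.42, beside 0.28. Set out by role, 5 calls were core proteins, 1 was a hyaluronan synthase, 3 were chondroitin chain enzymes and 2 were sulfotransferases (CHST3 and HS6ST1). None was a linker enzyme or a heparan chain enzyme.

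**Figure D1:**
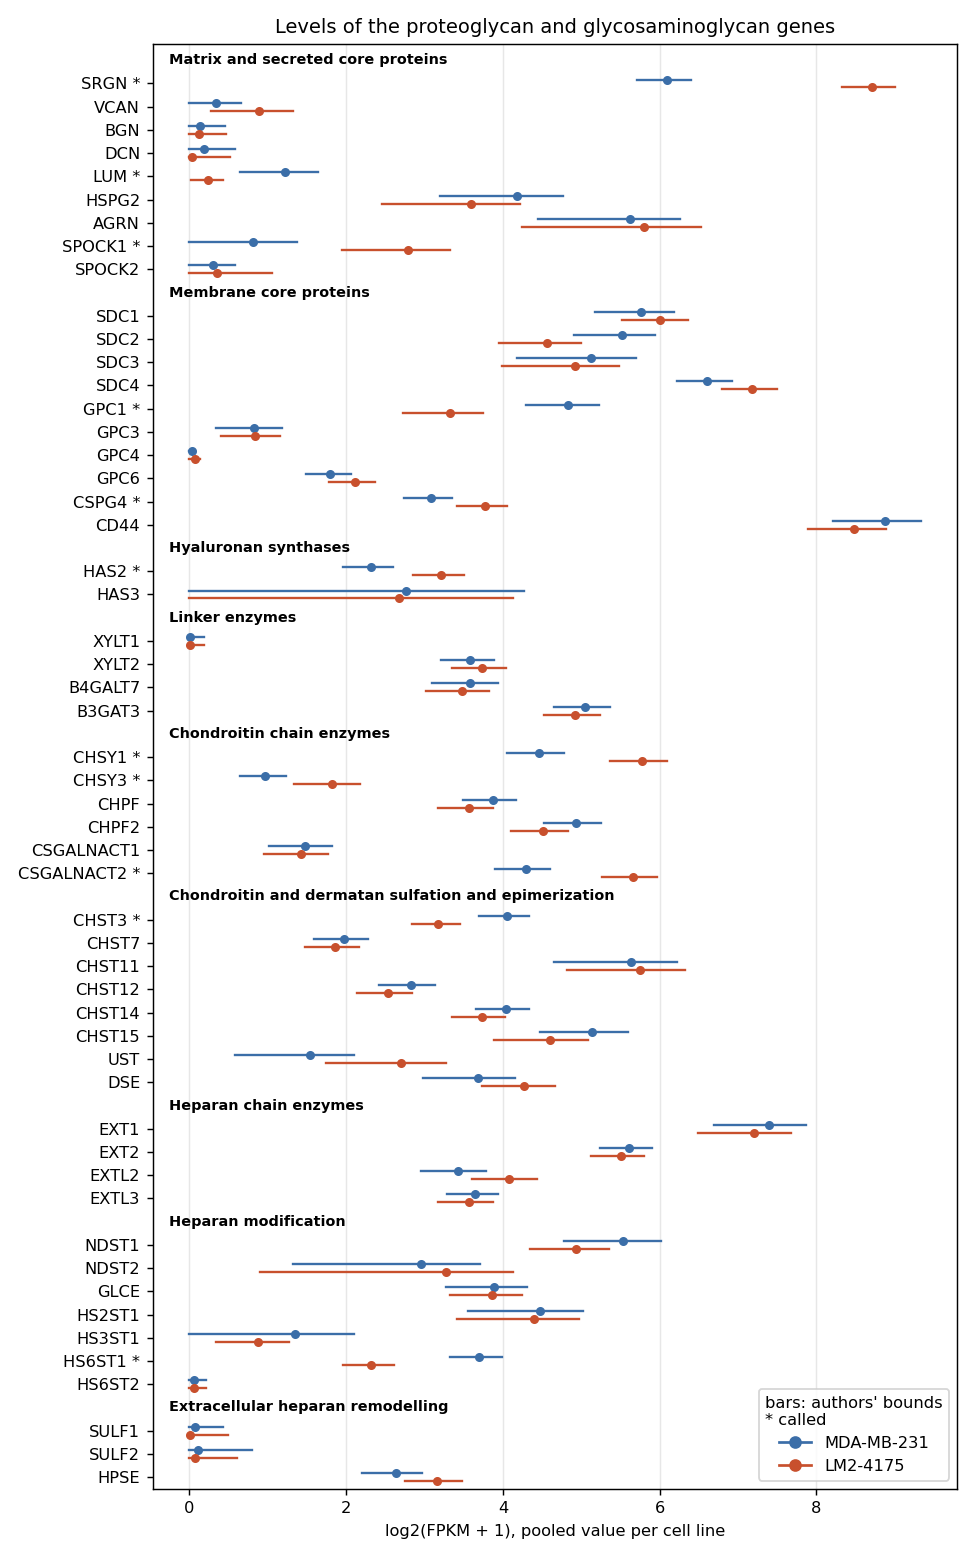
Level of each of the 53 genes in MDA-MB-231 (blue) and LM2 (red), as log2(FPKM + 1) on the horizontal axis, grouped by role. Points are the pooled value per cell line, bars the authors' bounds, and stars mark the 11 genes called, with SRGN showing the widest separation.

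**Figure D2:**
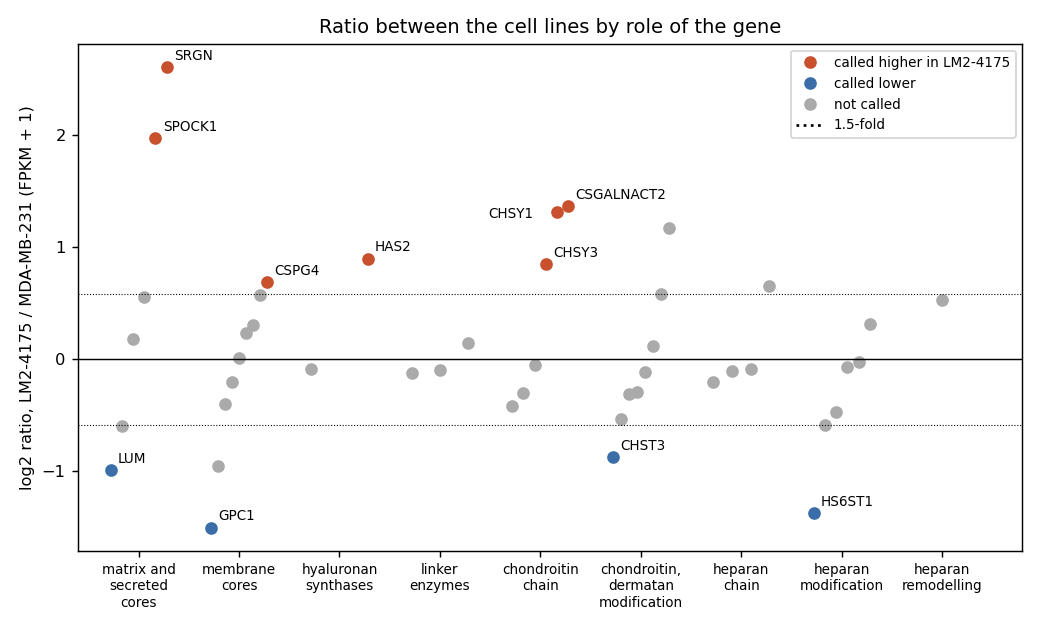
Log2 ratio of FPKM + 1 between LM2 and MDA-MB-231 (vertical axis) for the 45 genes that passed the filter, by role. Red points were called higher, blue points lower and grey points were not called, and dotted lines mark 1.5-fold. Of the 6 chondroitin chain enzymes 3 are red, and of the 4 heparan chain enzymes none is, beside 4.67% of all genes tested.

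The largest log2 ratio of FPKM + 1 was that of SRGN, which encodes serglycin, the proteoglycan packed into secretory granules of blood cells and also secreted by tumour cells. SRGN (ENSG00000122862) lies on the plus strand of chromosome 10, from 70847859 to 70864561 in GRCh37. MDA-MB-231 held 67.3 FPKM of it (bounds 51.6 to 83.1), and LM2 held 415.9 FPKM (320.7 to 511.1). By the plain ratio of FPKM, the much lower SPOCK1 (7.77-fold higher) and LUM (7.52-fold lower) stood before SRGN. The level was 6.18-fold higher, and 3.86-fold even between the bounds that face each other, with a log2 ratio of 2.61 ± 0.23 (SE taken from the bounds). SRGN moved from rank 1645 to rank 186 among the 13911 genes tested in each cell line. It was the fourth highest of the 53 genes in MDA-MB-231 and the highest in LM2, where its bounds overlapped those of CD44 (236.3 to 473.8 FPKM). As white blood cells also express SRGN, markers of these were read beside it, and their summed level went from 33.3 to 111.8 FPKM. Nearly all of that sum was LAPTM5, called higher with 32.1 FPKM in MDA-MB-231 and 109.97 FPKM in LM2. The defining marker PTPRC was at 0.0767 and 0.0263 FPKM, CD3E was listed at 0 in both lines, and CD14 had 1.17 and 1.75 FPKM.

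SPOCK1 encodes testican-1, a secreted proteoglycan with a calcium-binding domain like that of SPARC. Its FPKM went up from 0.760 (bounds 0 to 1.58) to 5.91 (2.84 to 8.97), with a log2 ratio of 1.97 ± 0.47. The gene lies on the minus strand of chromosome 5, from 136310987 to 136934068. The lower bound of 0 in MDA-MB-231 leaves the size of this change loosely bounded, at 1.79-fold or more. Its paralogue SPOCK2 had 0.233 and 0.281 FPKM and did not pass the filter.

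LUM, which encodes the small leucine-rich keratan sulfate proteoglycan lumican, was the one matrix core protein called lower. Its level was low in both lines, at 1.34 FPKM (0.557 to 2.12) in the parental line and 0.178 FPKM (0.00936 to 0.346) in LM2, with a log2 ratio of -0.99 ± 0.26. The related leucine-rich proteoglycans decorin (DCN, 0.137 and 0.0253 FPKM) and biglycan (BGN, 0.0973 and 0.0842 FPKM) were under the filter in both lines. These 3 genes are typical of fibroblasts, and the 6 fibroblast markers read beside them did not move together. COL1A2 fell from 2.76 to 0.113 FPKM and PDGFRB from 9.44 to 1.91 FPKM, COL1A1 rose from 3.16 to 30.98 FPKM, and PDGFRA, COL3A1 and POSTN stayed below 0.2 FPKM in both. The part of such cells in the LUM result was not tested.

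Versican (VCAN), a large chondroitin sulfate proteoglycan of provisional matrix, had 0.263 FPKM (0 to 0.574) and 0.857 FPKM (0.215 to 1.499), a difference within its bounds. The basement membrane heparan sulfate proteoglycans were far higher. For agrin (AGRN) the values were 48.2 FPKM (20.8 to 75.6) in the parental line and 54.7 FPKM (17.998 to 91.3) in LM2. Perlecan (HSPG2) had 17.2 FPKM (8.15 to 26.2) and 11.04 FPKM (4.48 to 17.6), past 1.5-fold with overlapping bounds, and 11.7% of its exon bases also lie in LDLRAD2, which runs the other way.

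Among the membrane proteoglycans, CD44, which binds hyaluronan and carries chains on some splice forms, was the highest, with 469.7 FPKM (295.9 to 643.5) in the parental line and 355.0 FPKM (236.3 to 473.8) in LM2. The bounds overlap and the log2 ratio was -0.40. The FPKM of the whole gene does not tell its splice forms apart. CSPG4, also called NG2, a large chondroitin sulfate proteoglycan of the membrane, was called higher, from 7.45 FPKM (5.69 to 9.20) to 12.6 FPKM (9.69 to 15.5), 1.69-fold with only 1.05-fold between the facing bounds. An antisense gene covers 6.79% of the bases in its exons.

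The syndecans, transmembrane proteoglycans that mostly carry heparan sulfate, summed to 228.7 FPKM in MDA-MB-231 and 259.4 FPKM in LM2, and none of the 4 was called. SDC4, the focal adhesion syndecan, was the highest in both lines, with 96.6 FPKM (73.4 to 119.9) and 144.4 FPKM (109.7 to 179.0), just under 1.5-fold. SDC2 had 44.7 FPKM (29.03 to 60.5) and 22.7 FPKM (14.4 to 30.9), a 1.97-fold lower level whose bounds overlap by a narrow margin. For SDC1 the values were 53.4 FPKM (35.1 to 71.6) and 63.1 FPKM (44.7 to 81.5), and SDC3 had 33.9 and 29.2 FPKM. Of the syndecan sum, SDC4 made up 42.3% in the parental line and 55.7% in LM2, and the share of SDC2 was 19.6% and 8.74%.

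The glypicans, which are held in the membrane by a lipid anchor and carry heparan sulfate near the cell surface, showed a lower sum in LM2, at 13.2 FPKM beside 30.7 FPKM. This followed GPC1, the main glypican of both lines, which fell from 27.4 FPKM (18.6 to 36.3) to 9.02 FPKM (5.61 to 12.4). The change was 3.04-fold, and 1.49-fold between the facing bounds, with a log2 ratio of -1.504 ± 0.33 (chromosome 2 of GRCh37, 241375080 to 241407493, plus strand). GPC6 had 2.48 FPKM (1.80 to 3.16) and 3.31 FPKM (2.45 to 4.17), and its share of the glypican sum went from 8.07% to 25.2% while that of GPC1 went from 89.4% to 68.6%. GPC3 was at 0.766 and 0.779 FPKM, and GPC4 was under the filter.

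**Figure D3:**
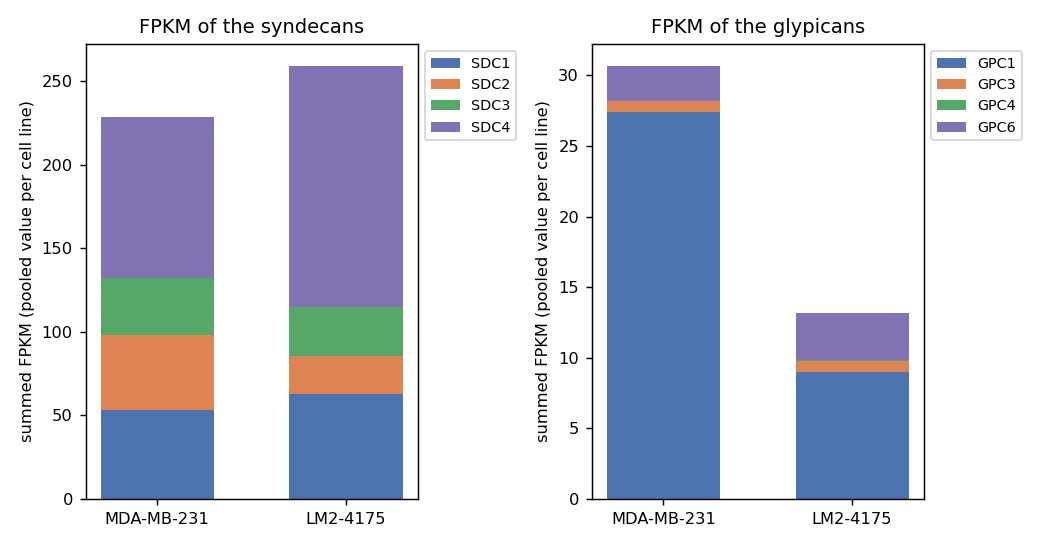
Summed FPKM (vertical axis) of the 4 syndecans and the 4 glypicans in each cell line, with 1 colour per gene and no error bars since each bar stacks pooled values. SDC4 takes 42.3% of the syndecan bar of MDA-MB-231 and 55.7% of that of LM2, and the glypican bar falls from 30.7 to 13.2 FPKM with GPC1.

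Over all 19 core proteins, the FPKM summed to 872.0 in the parental line and to 1129.1 in LM2. CD44 held 53.9% of it in the former and 31.4% in the latter, and SRGN held 7.72% and 36.8%. Without CD44, which is a proteoglycan only in part of its forms, SRGN held 16.7% and 53.7% of the sum.

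Of the hyaluronan synthases, HAS2 was called higher. HAS2 makes long hyaluronan chains and lies on chromosome 8 (122624356 to 122653680, minus strand). Its level was 3.98 FPKM (2.89 to 5.07) in the parental line and 8.28 FPKM (6.23 to 10.3) in LM2, 2.08-fold, with a log2 ratio of 0.90 ± 0.22. An antisense gene overlaps 5.92% of its exon bases. HAS3 had 5.80 FPKM and 5.41 FPKM, with bounds from 0 to 18.2 and from 0 to 16.5 FPKM that are too wide to place it above or below HAS2. HAS1, a gene of a further list, was listed at 0 in both lines.

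The genes around hyaluronan that are no synthases were read from further pathway lists. KIAA1199 (also named CEMIP), which encodes a hyaluronan-binding protein needed for hyaluronan breakdown in skin fibroblasts, was at 29.5 FPKM (16.4 to 42.5) in the parental line and at 0.376 FPKM (0 to 1.18) in LM2. Its log2 ratio of -4.47 ± 0.52 was the largest in size of the 91 genes of the membership and pathway lists that were tested. TMEM2, which encodes a related membrane hyaluronidase, had 10.1 FPKM (5.57 to 14.6) and 17.1 FPKM (9.66 to 24.6), and HYAL2 had 25.1 and 24.0 FPKM, neither called. Among genes for hyaluronan-binding proteins, HMMR had 12.2 and 10.1 FPKM and HAPLN3 had 3.20 FPKM (1.90 to 4.50) and 6.05 FPKM (4.04 to 8.05), and neither was called. HAPLN1, TNFAIP6, LYVE1, STAB1 and STAB2 were below the filter.

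The linker is started by xylosyltransferases, B4GALT7 acts after them, and B3GAT3 adds its last sugar. Of these genes 3 were tested and none was called, where 4.67% of all genes tested were called higher and 4.61% lower. XYLT2 carried nearly the whole xylosyltransferase level, with 10.99 FPKM in MDA-MB-231 and 12.3 FPKM in LM2, while XYLT1 was at 0.00342 and 0.00475 FPKM. B4GALT7 had 10.96 and 10.2 FPKM, and B3GAT3 had 32.2 and 29.4 FPKM. The log2 ratios of the 3 genes tested lay between -0.13 and 0.15.

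Of the 6 chondroitin chain enzymes, 3 were called higher and none lower, beside 4.67% and 4.61% of all genes tested, and the median log2 ratio was 0.40. The calls of so few genes are a description, and their summed FPKM went from 85.4 to 139.9. CSGALNACT2, which adds the first N-acetylgalactosamine and so commits the linker to chondroitin, rose from 18.6 FPKM (13.9 to 23.3) to 49.5 FPKM (37.5 to 61.4), 2.66-fold (log2 ratio 1.37 ± 0.24). CHSY1, which extends the chain by alternate sugars, rose from 20.98 FPKM (15.5 to 26.4) to 53.5 FPKM (40.1 to 67.0), 2.55-fold (log2 ratio 1.31 ± 0.25). Its paralogue CHSY3 was also called higher, at 0.957 FPKM (0.563 to 1.35) and 2.52 FPKM (1.52 to 3.53), low levels in both lines. In MDA-MB-231 the bounds of CSGALNACT2, CHSY1 and CHPF2 overlap, whereas in LM2 CHSY1 and CSGALNACT2 stood above the other 4 genes with bounds apart.
The other 3 genes of chain synthesis had slightly lower values in LM2, none of them called. CHPF2, a partner of the synthases, had 29.5 FPKM (21.9 to 37.0) and 21.8 FPKM (16.1 to 27.5), and CHPF had 13.6 and 10.8 FPKM. Other genes, on both strands, overlap 22.1% of the exon bases of CHPF2. CSGALNACT1 had 1.77 and 1.68 FPKM.

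Of the 8 genes that sulfate or epimerize chondroitin and dermatan chains, none was called higher (beside 4.67% of all genes tested). One was called lower (12.5%, beside 4.61%), and the calls of so few genes are a description. CHST3, the chondroitin 6-O-sulfotransferase, fell from 15.5 FPKM (11.998 to 19.1) to 8.03 FPKM (6.15 to 9.92), 1.93-fold (log2 ratio -0.87 ± 0.22). The 4-O-sulfotransferase CHST11 was the highest of the group, with 48.7 FPKM (24.2 to 73.3) and 52.97 FPKM (27.1 to 78.9). CHST15, which adds a further sulfate to 4-sulfated units, had 34.2 FPKM (21.2 to 47.3) and 23.3 FPKM (13.7 to 32.9), and CHST12, CHST14 and CHST7 had log2 ratios between -0.31 and -0.12. Both genes with a rise past 1.5-fold had overlapping bounds. UST, the uronyl 2-O-sulfotransferase, had 1.89 FPKM (0.493 to 3.29) and 5.52 FPKM (2.34 to 8.69), and DSE, the dermatan sulfate epimerase, had 11.9 FPKM (6.89 to 16.8) and 18.3 FPKM (12.2 to 24.4). Genes on both strands overlap 10.3% of the exon bases of DSE. DSEL, a second dermatan epimerase gene from a further list, was called lower, from 2.48 FPKM (1.86 to 3.11) to 0.632 FPKM (0.435 to 0.829), though genes on the opposite strand overlap 37.6% of its exon bases and no source used here says whether reads were counted by strand.

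On the heparan side, none of the 4 chain enzymes was called, where 4.67% of all genes tested were called higher and 4.61% lower. EXT1 and EXT2 together encode the heparan sulfate polymerase, and their FPKM were unequal in both lines. EXT1 was at 167.98 FPKM (102.7 to 233.2) in the parental line and 145.8 FPKM (89.1 to 202.5) in LM2, and EXT2 had 47.8 FPKM (36.7 to 58.8) and 44.3 FPKM (33.8 to 54.7), with bounds apart from those of EXT1 in each line. EXTL3, which starts the heparan chain, had 11.5 and 10.8 FPKM. EXTL2, which can add N-acetylglucosamine or N-acetylgalactosamine to the linker, had 9.75 FPKM (6.77 to 12.7) and 15.9 FPKM (11.2 to 20.5), past 1.5-fold with overlapping bounds.

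Of the 6 heparan-modifying enzymes tested, HS6ST1 alone was called, as lower (16.7%, beside 4.61% of all genes tested). This 6-O-sulfotransferase gene (chromosome 2 of GRCh37, 128994290 to 129076442, minus strand) fell from 11.9 FPKM (9.04 to 14.9) to 3.99 FPKM (2.88 to 5.11), 2.99-fold, and 1.77-fold between the facing bounds, with a log2 ratio of -1.38 ± 0.23. HS6ST2 was at 0.0366 and 0.0375 FPKM, and HS6ST3, from a further list, at 0.232 and 0.0705 FPKM, so HS6ST1 made up nearly all of the 6-O-sulfotransferase level in both lines. NDST1, the N-deacetylase and N-sulfotransferase that acts before the other modifying enzymes, had 45.1 FPKM (26.5 to 63.6) and 29.6 FPKM (19.3 to 39.9), past 1.5-fold with overlapping bounds. NDST2 had 6.77 and 8.66 FPKM, but a gene on the same strand shares 82.9% of its exon bases, so its value is uncertain. The epimerase GLCE (13.8 and 13.5 FPKM) had a log2 ratio of -0.03 and the 2-O-sulfotransferase HS2ST1 (21.2 and 20.1 FPKM) one of -0.07, while their bounds at the far ends would allow a level 2.09-fold and 3.25-fold lower in LM2. HS3ST1 had 1.55 FPKM (0 to 3.27) and 0.837 FPKM (0.261 to 1.41). The 3-O-sulfotransferase gene HS3ST3B1 of a further list was called lower, from 4.14 FPKM (2.25 to 6.03) to 1.51 FPKM (0.875 to 2.14).

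Enzymes that edit heparan sulfate after secretion were mostly near 0. The 6-O-endosulfatases SULF1 and SULF2, which remove the sulfate groups that HS6ST1 adds, had at most 0.0817 FPKM in either line. HPSE, the heparanase that cuts heparan chains, had 5.20 FPKM (3.59 to 6.81) and 7.94 FPKM (5.76 to 10.1). Its log2 ratio was 0.53, and it was not called. All 8 genes under the filter (BGN, DCN, SPOCK2, GPC4, XYLT1, HS6ST2, SULF1 and SULF2) lay between 0.00337 and 0.281 FPKM. Their lower bounds were 0 in both lines, so no direction can be read for them.

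The further pathway lists held 77 entries, of which 46 passed the filter, with 2 called higher (4.35%, against 4.67% of all genes tested) and 5 lower (10.9%, against 4.61%). Among 16 genes for the supply of sugar nucleotides and sulfate donors, all tested, 1 was called each way. GFPT2, a paralogue of the enzyme that opens the hexosamine pathway toward UDP-N-acetylglucosamine, rose from 23.1 FPKM (14.4 to 31.8) to 74.4 FPKM (47.7 to 101.1), 3.22-fold. UXS1, which makes UDP-xylose, the donor for the first sugar of the linker, fell from 68.5 FPKM (52.3 to 84.7) to 41.3 FPKM (31.5 to 50.97), and its facing bounds were 1.03-fold apart. UGDH, which makes UDP-glucuronic acid for all of these chains, had 28.3 and 25.0 FPKM.
Of 20 further core proteins, 6 passed the filter. COL18A1, a basement membrane collagen that carries heparan sulfate, fell from 79.2 FPKM (44.7 to 113.65) to 26.8 FPKM (13.8 to 39.8), with 18.5% of its exon bases overlapped by a gene on the opposite strand. ESM1, which encodes the dermatan sulfate proteoglycan endocan, rose from 0.165 FPKM (0 to 0.376) to 1.11 FPKM (0.521 to 1.71). Among 20 entries for chain degradation, 17 were tested, and KIAA1199 was the 1 gene called. The lysosomal galactosidase gene GLB1 of that list had a log2 ratio of 0.04. IDS has 2 entries in the table, and the higher one had 48.7 FPKM (29.1 to 68.4) and 85.0 FPKM (52.5 to 117.6). Genes on the same strand share 75.9% of the exon bases of that entry. GUSB had 48.95 FPKM (36.9 to 61.0) and 30.9 FPKM (22.9 to 38.9). Like TMEM2, both were past 1.5-fold with overlapping bounds.

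Since a whole stretch of a chromosome can differ in level between related cell lines, the protein-coding genes tested within 3 Mb of each called gene were read beside it. Over all 13911 genes tested, protein-coding or not, 6326 had higher and 7585 had lower values in LM2. Of these, 4.67% were called higher and 4.61% lower. The 2 called genes on chromosome 15 stood among neighbours that were higher too. All 15 neighbours of CHSY1 (101715932 to 101792253) had higher values in LM2, with a median log2 ratio of 1.13 beside 1.31 for CHSY1 itself, and 6 of them were called higher. Of the 48 neighbours of CSPG4 (75966663 to 76005189), 45 had higher values, with a median of 0.47 beside 0.69 for CSPG4. The part of these stretches in the levels of CHSY1 and CSPG4 was not tested. KIAA1199, on the same chromosome (81071684 to 81244117), was lower while 30 of its 34 neighbours had higher values, with a median of 0.50.
For the other called genes of the membership list, apart from HS6ST1, the median of the neighbours lay closer to 0. The median was 0.15 over 33 neighbours of SRGN, -0.07 over 52 of SPOCK1, -0.00 over 15 of CSGALNACT2 (43633893 to 43680750 on chromosome 10), -0.04 over 24 of CHSY3 (129240158 to 129522327 on chromosome 5), 0.02 over 33 of GPC1 and -0.02 over 15 of LUM. For HAS2 and CHST3 the median of the neighbours had the opposite sign, at -0.25 over 27 genes (9 of them higher) and 0.27 over 49 genes (12 of them lower). HS6ST1 was lower among 23 neighbours of which 20 were lower, with a median of -0.44 beside -1.38 for HS6ST1.

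**Figure D4:**
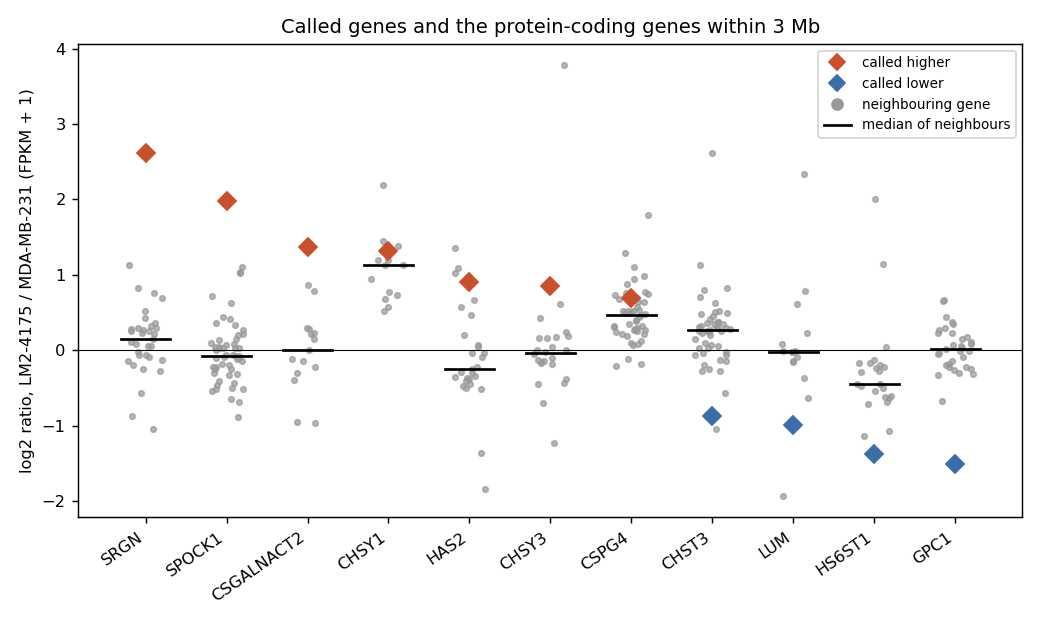
Log2 ratio of FPKM + 1 between LM2 and MDA-MB-231 (vertical axis) for the 11 called genes (diamonds, red higher and blue lower) and for the protein-coding genes tested within 3 Mb of each (grey points, bar at their median). CHSY1 and CSPG4 lie among their neighbours, while SRGN, SPOCK1 and CSGALNACT2 lie above all and GPC1 and HS6ST1 below all of theirs.

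The labels were checked on markers. Of 5 mesenchymal markers 4 were tested and none was called, with higher values in LM2 for VIM (1355 and 1767.5 FPKM) and ZEB1 and lower ones for AXL and MSN. The hormone receptor genes ESR1 and PGR had at most 0.0331 FPKM, and ERBB2 had 34.95 and 22.8 FPKM. The 6 epithelial markers summed to 1337.7 FPKM in MDA-MB-231 and 403.4 FPKM in LM2, and 4 of the 5 tested were called lower, KRT8, KRT18, KRT19 and EPCAM. Of 3 endothelial markers CDH5 and VWF were below 0.1 FPKM in both lines, and KDR rose from 0.971 to 2.48 FPKM. Over the 45 genes, the median distance from FPKM to upper bound was 34.2% (MDA-MB-231) and 33.1% (LM2) of the FPKM, beside 38.6% and 38.1% over all genes tested. How many reads stand behind a value is not known from the table, which gives no counts.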

How the data were processed

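RNA-Seq of MDA-MB-231 and LM2 was used, with 2 libraries per cell line. The authors extracted total RNA and prepared libraries from it with the TruSeq kit. They mapped paired reads to hg19 with TopHat 2.0 and quantified GENCODE 19 genes with Cufflinks. They deposited FPKM with a lower and an upper bound per gene and cell line, libraries combined. The submitters' processing notes also name Cuffdiff. How libraries were scaled, and whether counting used strand, is not given in the sources used here.
From these values the log2 ratio of FPKM + 1 was computed over the whole table in Python 3.11.15 with NumPy 2.4.6 and pandas 2.3.3, and figures were drawn with Matplotlib 3.10.9. The filter kept genes whose estimate was marked OK for each line and whose mean reached 0.5 FPKM. The fold of 1.5 is that of the methods, whose q-values need single libraries, so bounds that do not overlap took their place. What is compared is therefore 1 pool of libraries with another. The SE is the upper bound minus the FPKM, over 2, carried to the log2 scale. A figure of facing bounds is the lower bound of the higher value over the upper bound of the lower value.
The genes and lists were chosen with earlier results of these data known. By the naming rule, values are given in full for called genes, for the 10 with the highest mean FPKM and for those past 1.5-fold with overlapping bounds, and for called genes of the further lists. Other genes of the further lists were named after their values were seen. Positions and exon overlaps came from GENCODE 44 on GRCh37, which matched 55535 entries by Ensembl ID. The marker PECAM1 was not analysed here. Some genes of the marker and further lists are not reported here. The alternatives covered the pseudocount, the filter, the scaling and the rule for a call.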

Additional observations from a re-analysis of the deposited data

How the results depend on the processing

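Under 11 alternatives to the processing, SRGN, CHSY1, CSGALNACT2, GPC1 and HS6ST1 were called each time, and no called gene changed direction. With a fold of at least 2 the counts were 4 higher and 2 lower, since CHSY3, CSPG4, HAS2, CHST3 and LUM did not reach it on the ratio of FPKM + 1 (the plain ratios of CHSY3, HAS2 and LUM exceed 2). With the fold alone, 10 were higher, with UST, DSE and EXTL2 added, and 7 were lower, with SDC2, HSPG2 and NDST1 added. A difference over 2 standard errors gave 9 higher, with the heparan chain enzyme EXTL2 and UST added, and 5 lower, with the syndecan SDC2 added. A mean of at least 1 FPKM removed LUM, and one of at least 5 FPKM also removed SPOCK1 and CHSY3. Pseudocounts of 0.1 and 0.01, no filter, TPM scaling, quantile normalization and the bounds alone gave 7 higher and 4 lower as before. The shares of all genes called higher and lower were 1.19% and 1.15% with no filter, and 5.27% and 3.86% with TPM. They were 4.74% and 4.43% with quantile normalization, and 4.74% and 4.64% with either pseudocount and with the bounds alone. The order by size depends on the pseudocount, since at 0.1 the log2 ratio of SPOCK1 was 2.80 and that of SRGN 2.63. The median log2 ratio of the genes tested ran from -0.09 to 0.00317, the latter with TPM, which moves the median of all genes from -0.04 to 0.03, and the median is therefore not read as a direction. No paired analysis was possible because the table holds 1 pooled value per cell line, and for the same reason no library could be left out. The bounds limit what low genes can show. They are also wide for HAS3, whose mean passed 5 FPKM, and reach from 0 to 18.2 FPKM in MDA-MB-231. Over all genes tested, the main rule called 649 higher (4.67%) and 641 lower (4.61%). The fold alone called 1434 (10.3%) and 1640 (11.8%), and a fold of at least 2 called 450 (3.23%) and 403 (2.9%). A difference over 2 standard errors called 903 (6.49%) and 1063 (7.64%). With a mean of at least 1 FPKM the shares were 4.43% and 4.69%, and with one of at least 5 FPKM 3.37% and 4.65%.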
